A study of Mus musculus with 8 samples.

Results

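The AP-1, Batf and Irf4 group comprised 10 genes: Batf, Batf3, Irf4, Jun, Junb, Jund, Fos, Fosb, Fosl1 and Fosl2. Each was read by 1 transcript cluster (a probe set that covers a whole transcript) carrying that single gene symbol, so all 10 of the 10 listed genes were found among 19938 genes measured. They were measured in mouse CD4 T cells sorted as naive, cells that have not yet met antigen. In 4 samples the mice lacked Bcl6 conditionally in T cells (genotype label T cell-specific conditional Bcl6-/-, called Bcl6 cKO here), and in 4 samples they were wild type (WT). All 8 samples had been activated in culture through CD3 and CD28 for 24 hours and carry the tag Tf0, which the labels do not explain. The Cre driver, the deleted exons, the strain, the age and any pooling of mice are not given in the labels. No label ties the samples of a group to separate mice, so the p-values reflect sample-to-sample spread that may in part be technical. Y-linked RNA was high on 3 WT arrays and 1 Bcl6 cKO array and low on the others, so each group holds samples of both sexes.

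AP-1 is a family of dimeric transcription factors built from a basic DNA-binding region and a leucine zipper. Jun proteins pair with each other or with Fos proteins, whereas Fos proteins need a Jun partner. Batf and Batf3 are small members without a transactivation domain that take the place of Fos beside Jun. In T cells Batf and Jun recruit Irf4, an interferon regulatory factor induced by antigen receptor signals, to composite DNA elements. These complexes are known for controlling the differentiation of helper T cells, including the follicular helper cells that need Bcl6.

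The promoters of 3 genes whose arrays are described below are shown because each holds a match to a motif of this family or its partners. They are RefSeq promoters of build GRCm38.p6, from 250 bases before to 50 bases after the annotated start. Capitals mark the match. The Fos promoter (plus strand, chr12:85473640-85473939) holds the cyclic AMP response half-site TGACGT from base -66. The Jun promoter (minus strand, chr4:95052173-95052472) holds TGACATCA, the variant AP-1 site known from this promoter, from base -45. The Fosl2 promoter (plus strand, chr5:32136222-32136521) holds an element of the interferon response type, GAAA repeated after 2 bases, on the opposite strand from base -221.
Fos: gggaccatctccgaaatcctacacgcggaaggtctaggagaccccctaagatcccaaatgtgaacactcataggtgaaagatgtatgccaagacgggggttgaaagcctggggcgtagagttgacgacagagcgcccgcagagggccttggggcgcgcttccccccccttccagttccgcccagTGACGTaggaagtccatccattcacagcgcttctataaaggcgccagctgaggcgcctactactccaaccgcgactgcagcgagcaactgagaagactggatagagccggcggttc
Jun: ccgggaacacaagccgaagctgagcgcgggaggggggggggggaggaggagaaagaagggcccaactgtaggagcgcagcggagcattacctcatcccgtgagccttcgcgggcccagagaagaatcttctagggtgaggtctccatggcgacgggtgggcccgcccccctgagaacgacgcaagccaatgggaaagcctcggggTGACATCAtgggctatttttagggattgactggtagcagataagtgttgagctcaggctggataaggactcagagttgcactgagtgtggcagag
Fosl2: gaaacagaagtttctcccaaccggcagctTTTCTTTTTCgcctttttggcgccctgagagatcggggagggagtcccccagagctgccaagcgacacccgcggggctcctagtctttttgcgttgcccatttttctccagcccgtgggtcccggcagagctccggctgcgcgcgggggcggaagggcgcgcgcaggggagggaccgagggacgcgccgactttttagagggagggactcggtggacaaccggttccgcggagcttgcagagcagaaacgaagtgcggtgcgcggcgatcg

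Promoters of 9 of the 10 genes were matched in the RefSeq table, and Fosl1 was not. On both strands, TGANTCA (AP-1), TGACGTCA (the full cyclic AMP element), TTCCTNGAA (Bcl6) and the CArG box of serum response factor had no match in any of the 9. Bases farther than 250 before the start were not searched, so sites there, of the CArG box included, would be missed. TGACGT, which is also part of TGACGTCA, was found in Fos and in Batf, against 8.37% of 27025 genes with a promoter. TGACATCA was found in Jun, against 4.18% of genes, and the pair of GAAA repeats in Fosl2, against 3.99%. TGACATCA and TGACGT were added to the search after the sequences were seen. A match is a string of letters in this window and no evidence of binding.

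By genomic position, Fos, Jdp2 and Batf follow one another on chromosome 12 in the order of protein-coding genes. Jdp2 encodes another zipper protein that pairs with Jun. It averaged 7.26 ± 0.10 (log2 signal, SD, n = 4) in Bcl6 cKO cells and 7.28 ± 0.08 in WT cells (n = 4). Atf3, a stress-induced partner of Jun, is the second protein-coding gene after Batf3 on chromosome 1.

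The arrays have no read depth, and their number limits the precision. Y-linked genes on the arrays without Y-linked RNA read 4.58 to 5.83 (log2), which served as a measure of background, and all 10 genes lay above it on every array. Of the CD4 T cell markers, 8 of 10 were measured and all were above background, Cd4 and Cd3e included. Their mean was 12.39 to 12.51 on Bcl6 cKO arrays and 12.54 to 12.57 on WT arrays. Both CD8 T cell markers were above background, with a mean of 8.66 to 8.92 in Bcl6 cKO and 8.92 to 9.13 in WT, and Cd8b1 had a log2 difference of -0.47 (adjusted p = 0.0541, limma). The part of this difference between the groups in the results that follow was not tested. On average, 1 of 5 B cell markers (Ms4a1), 2 of 8 markers of macrophages and dendritic cells (Adgre1, Mpeg1), 3 of 4 NK cell markers (Ncr1, Klrb1c, Klra8) and 2 of 4 neutrophil markers (S100a8, Ly6g) were at or under the background level. The other markers of these lists were above it, among them Cd79b (7.52 in Bcl6 cKO, 7.41 in WT), Cd68 (8.20 in Bcl6 cKO, 8.24 in WT) and Eomes (8.06 in Bcl6 cKO, 8.32 in WT). The list means per array were 6.47 to 6.59 in Bcl6 cKO and 6.48 to 6.54 in WT for B cells, and 6.37 to 6.61 in Bcl6 cKO and 6.43 to 6.52 in WT for macrophages and dendritic cells. For NK cells they were 5.59 to 5.82 in Bcl6 cKO and 5.53 to 5.88 in WT, and for neutrophils 6.10 to 6.26 in Bcl6 cKO and 5.99 to 6.21 in WT. The part of these cells in the results was not tested. Bcl6 itself, read by 1 cluster, was 8.74 ± 0.27 in Bcl6 cKO and 8.37 ± 0.20 in WT (n = 4 each, adjusted p = 0.337, limma). Its signal thus does not check the genotype labels, since the probes may read exons that were kept. Y-linked RNA was high on 1 Bcl6 cKO and 3 WT arrays, so sex differed between the groups. A comparison within the arrays of high Y-linked RNA therefore set 1 Bcl6 cKO array against 3 WT arrays, and one within those of low Y-linked RNA set 3 Bcl6 cKO arrays against 1 WT array, so each such value below rests on a lone array in 1 genotype.

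The comparison asks whether loss of Bcl6 changed these factors in activated CD4 T cells. No gene of the group passed the test, in either direction, at an adjusted p of 0.05 over all 19938 genes (limma), where 0.221% of all genes passed (0.105% higher, 0.115% lower). Without adjustment 2 of the 10 genes, Batf3 and Fos, had a p under 0.05, and 10.9% of all genes did. On the values themselves 7 of the 10 genes were above and 3 below WT, and 52.1% of all genes were above. The median log2 difference was 0.048 (Bcl6 cKO minus WT), against 0.0025 over all genes. The median sat within the spread between arrays of a group (SD 0.086). All 10 confidence intervals excluded a 2-fold difference, the widest reaching from -0.27 to 0.75 for Jun. RMA, the authors' normalization, lowers differences of dim genes, so these intervals apply to the array signal. The samples are bulk RNA, in which fewer expressing cells and less RNA per cell cannot be told apart.

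**Figure D1:**
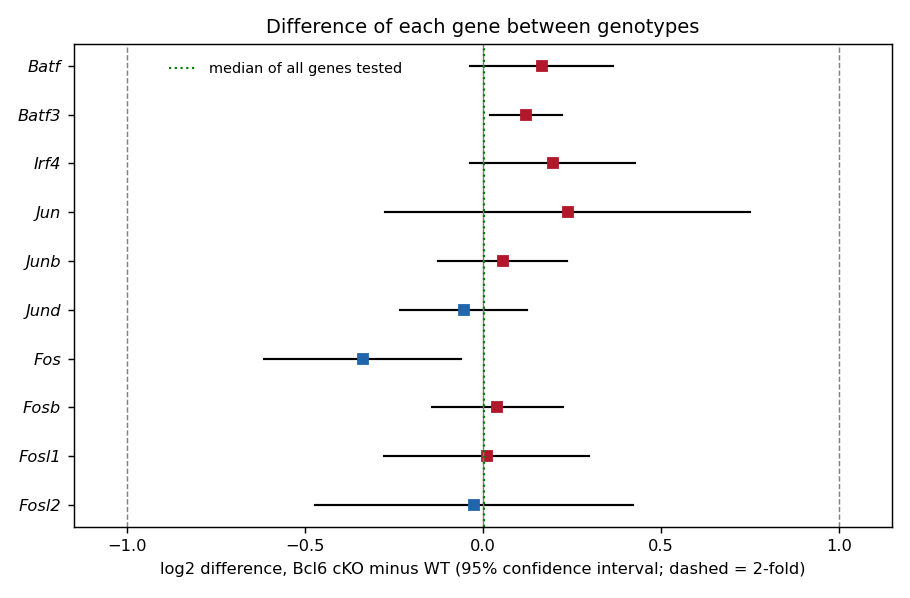
The log2 difference of each gene, Bcl6 cKO minus WT, is drawn as a square with its 95% confidence interval (n = 4 each). All intervals lie inside the dashed lines that mark 2-fold, and those of Batf3 and Fos do not reach 0.

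Batf3, best known for its need in a class of dendritic cells, read 7.62, 7.68, 7.64 and 7.69 on Bcl6 cKO arrays 1 to 4, against 7.51, 7.53, 7.53 and 7.58 on WT arrays. All Bcl6 cKO arrays were higher than every WT array, with a tight spread in both groups. The log2 difference was 0.12 (95% confidence interval 0.019 to 0.22), or 1.09-fold, with an adjusted p of 0.367 (limma). A two-sided exact permutation test gave p = 0.0286, the smallest that 4 against 4 arrays allow, and Batf3 alone reached it among the 10 genes so tested. Batf3 was the 1 gene of the 10 whose groups did not overlap, and over all genes 5.97% had groups that did not overlap. The difference was 0.093 with Y-linked signal in the fit, 0.097 on arrays with high Y-linked RNA and 0.09 on those with low.

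Batf, required for Th17 and follicular helper differentiation in mice, read 9.19, 9.58, 9.18 and 9.48 on Bcl6 cKO arrays 1 to 4, against 9.17, 9.27, 9.21 and 9.12 on WT arrays. Bcl6 cKO replicates 2 and 4 were higher than all other arrays, and replicates 1 and 3 lay within the WT range. Batf averaged 9.36 ± 0.20 in Bcl6 cKO and 9.19 ± 0.06 in WT (SD, n = 4 each). Its log2 difference of 0.17 had an interval of -0.035 to 0.37 and did not pass (adjusted p = 0.558, limma). It was 0.091 without Bcl6 cKO replicate 2. On arrays with high Y-linked RNA it was -0.027, and on those with low 0.29.

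Irf4 read 12.96, 13.38, 13.04 and 13.26 on Bcl6 cKO arrays, against 12.76, 13.05, 12.91 and 13.14 on WT arrays. Replicates 2 and 4 were higher than replicates 1 and 3 in both genotypes, and the groups overlapped. The log2 difference was 0.195 (interval -0.037 to 0.43, adjusted p = 0.55, limma). With Y-linked signal in the fit it was 0.07 (adjusted p = 0.86, limma), and with the odd or even number as a further term 0.15 (adjusted p = 0.561, limma). Without Bcl6 cKO replicate 2 it was 0.12, and without WT replicate 1 it was 0.13. Both genotypes hold replicates 1 to 4, so genotype and replicate number are balanced. Sex is balanced over neither of them, and the part of each in the Irf4 values was not tested.

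Among the Jun proteins, which supply the obligate partner of Fos and Batf, Jun varied most. Jun read 8.49, 9.70, 8.44 and 8.75 on Bcl6 cKO arrays, against 8.52, 8.65, 8.46 and 8.80 on WT arrays. The value of Bcl6 cKO replicate 2 stood above all others, and the remaining arrays of both groups shared 1 range. The log2 difference of 0.24 (adjusted p = 0.793, limma) became -0.048 without that array. The myeloid markers Lyz2 (7.67, against 5.82 to 6.58 on the other arrays) and Mpo (7.80, against 6.97 to 7.16) were also highest on that array. Of the other macrophage, dendritic cell and neutrophil markers, Cd68 (8.42) was highest there too. Cd14 (6.06) and Mpeg1 (5.75) were lowest there, Fcgr3 (6.78) was tied for lowest, and the rest lay between. The part of these markers in the Jun value of that array was not tested. Junb, an inhibitor of Jun in some settings and a partner of Batf in Th17 cells, ranged over 9.60 to 9.88 in Bcl6 cKO cells and 9.46 to 9.76 in WT cells. Jund, often described as a brake on proliferation, spanned 10.66 to 10.86 in Bcl6 cKO cells and 10.66 to 11.03 in WT cells. The groups of both genes overlapped, with log2 differences of 0.055 for Junb (interval -0.13 to 0.24) and -0.055 for Jund (interval -0.23 to 0.12).

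Fos, the classical immediate early partner of Jun, read 8.12, 7.90, 7.97 and 7.83 on Bcl6 cKO arrays, against 8.43, 8.02, 8.63 and 8.09 on WT arrays. Bcl6 cKO replicates 2, 3 and 4 lay below every WT array, and replicate 1 lay above WT replicates 2 and 4. Fos averaged 7.96 ± 0.12 in Bcl6 cKO and 8.29 ± 0.29 in WT (SD, n = 4 each). The log2 difference of -0.34 (interval -0.61 to -0.061) did not pass over all genes (adjusted p = 0.351, limma) or in the two-sided exact permutation test (p = 0.0857). With Y-linked signal in the fit it was -0.215, and with odd or even number added to it -0.3175 (adjusted p = 0.415, limma). Without WT replicate 3 it was -0.225. On arrays with high Y-linked RNA it was -0.24, and on those with low Y-linked RNA -0.19.

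Fosb, also an immediate early gene, spanned 7.88 to 8.24 in Bcl6 cKO cells and 7.85 to 8.10 in WT cells. Fosl1 (Fra-1) and Fosl2 (Fra-2) encode later Fos proteins, Fosl2 being a repressor of part of the Th17 program in mice. Fosl1 read 9.29, 9.40, 9.24 and 9.30 on Bcl6 cKO arrays, against 9.58, 9.09, 9.56 and 8.96 on WT arrays. The Bcl6 cKO arrays lay between the odd-numbered and the even-numbered WT arrays. Fosl2 read 9.84, 9.36, 9.76 and 9.33 on Bcl6 cKO arrays, against 10.07, 9.23, 9.90 and 9.19 on WT arrays. Both groups split by replicate number, with the odd-numbered arrays higher, and all Bcl6 cKO arrays lay within the WT range. The Bcl6 cKO arrays were below WT among odd numbers and above WT among even numbers. The log2 differences were 0.04 for Fosb, 0.01 for Fosl1 and -0.025 for Fosl2, with adjusted p-values from 0.926 to 0.987 (limma).

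**Figure D2:**
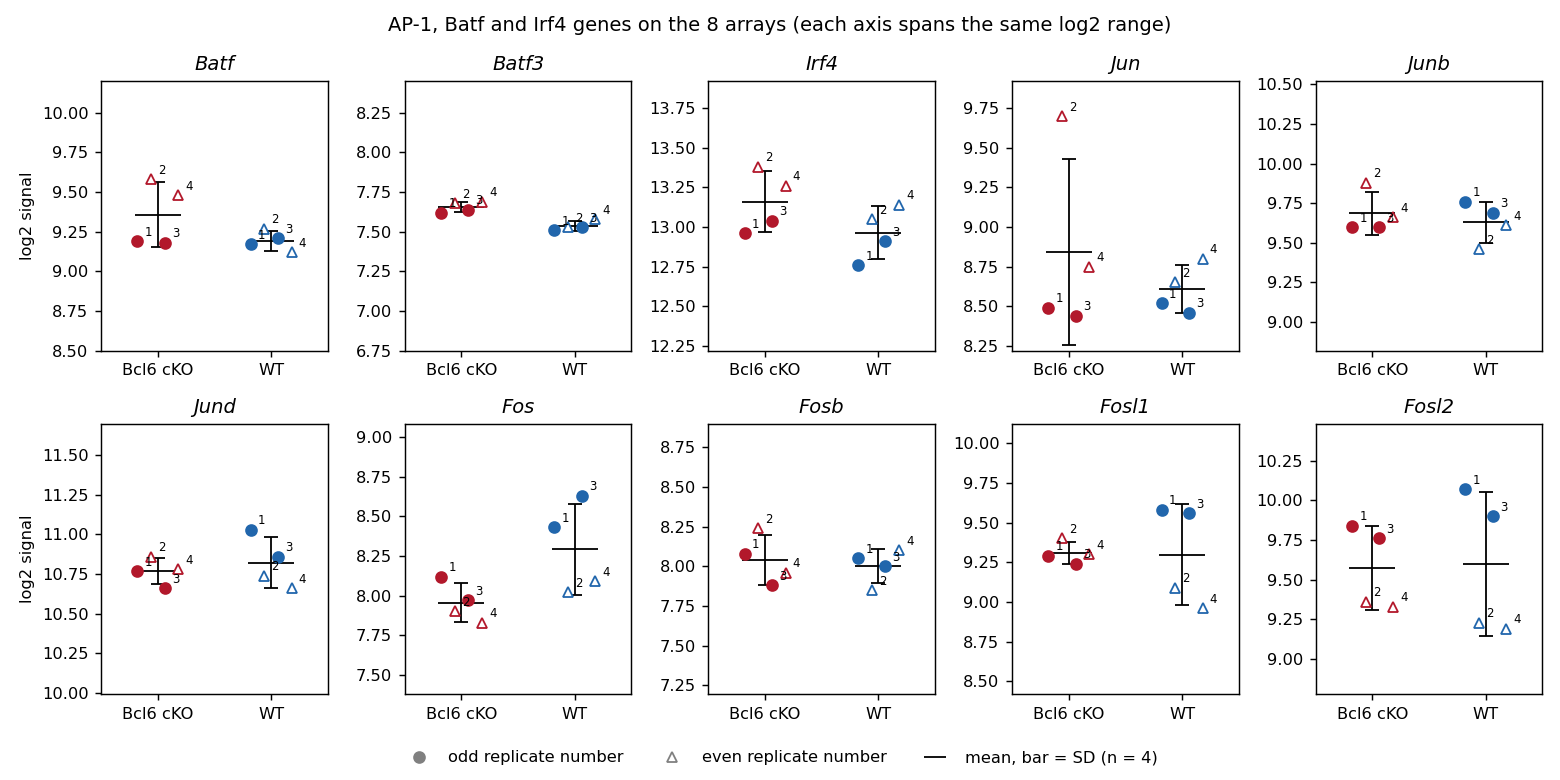
Each panel shows the log2 signal of 1 gene on 4 Bcl6 cKO arrays (left) and 4 WT arrays (right), numbered by replicate, with the mean and SD. Filled circles are odd and open triangles even replicate numbers. Batf3 is the panel whose groups do not overlap, and in Fosl2, Irf4 and Jun the circles and triangles do not overlap.

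Several of these genes took separate levels on odd-numbered and even-numbered arrays, by the replicate number in the sample titles. This split was taken up after the values were seen, and the labels do not say what a number stands for. Sex was not balanced over it, since Y-linked RNA was high on WT replicates 1, 2 and 3 and Bcl6 cKO replicate 1. With genotype in the fit, arrays of high minus low Y-linked RNA differed by 0.45 for Fosl2, -0.25 for Irf4 and -0.365 for Jun. The part of sex in the split was not tested. Odd-numbered and even-numbered arrays did not overlap for 3 of the 10 genes, Fosl2, Irf4 and Jun, and over all genes 4.15% were apart in this way. Fosl2 averaged 9.89 on the 4 odd-numbered arrays and 9.28 on the 4 even-numbered arrays, a difference of 0.615 ± 0.074 (SE) with genotype in the fit, or 1.53-fold. That of Irf4 was -0.29 ± 0.058 and that of Jun -0.4975 ± 0.18, both higher on even-numbered arrays. The median absolute odd-minus-even difference was 0.20 in the 10 genes, against 0.053 over all genes. After median centring, after quantile normalization or without any 1 array, the difference of Fosl2 lay between 0.549 and 0.663. That of Jun was -0.255 without Bcl6 cKO replicate 2.

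The marker lists overlapped between odd-numbered and even-numbered arrays, neutrophil markers included (5.99 to 6.14 odd, 6.12 to 6.26 even). The list of activation markers (Cd69, Il2ra, Tnfrsf9, Tfrc, Myc, Icos) had means of 12.33 to 12.43 on odd-numbered and 12.26 to 12.41 on even-numbered arrays. Its members did not move together, since Tnfrsf9 was higher on every odd-numbered array (11.87 to 12.31 odd, 11.73 to 11.86 even) and Icos higher on every even-numbered array (12.16 to 12.20 odd, 12.26 to 12.34 even). Cd2, alone among the CD4 T cell markers, was also higher on every even-numbered array (11.88 to 12.20 odd, 12.22 to 12.35 even). The other CD4 T cell markers overlapped. Cd28 (12.91 to 12.99 odd, 12.63 to 12.94 even) and Cd3g (12.82 to 12.94 odd, 12.65 to 12.87 even) leaned the other way, as did Cd5 and Zap70. The part of these genes in the split was not tested. When odd or even number was a term, the genotype difference had an adjusted p of 0.0965 for Fos and 0.186 for Irf4 (limma), with the differences as before. No gene of the group passed in that fit either.

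Within each genotype the 10 genes differed in how they followed the replicate number. In Bcl6 cKO the odd-minus-even difference was 0.455 for Fosl2, 0.18 for Fos and -0.085 for Fosl1, and in WT it was 0.775, 0.475 and 0.545. For Jund it was -0.105 in Bcl6 cKO and 0.245 in WT, and for Junb -0.17 in Bcl6 cKO and 0.19 in WT. All 10 genes had a lower odd-minus-even difference in Bcl6 cKO than in WT, as did 50.7% of all genes. In the test of this difference (limma, genotype by odd or even number, added after the values were seen) no gene of the array passed. Fosl1 came nearest of the 10, at -0.63 (adjusted p = 0.255). At an unadjusted p under 0.05 there were 6 of the 10 genes, against 4.41% of all genes. The genes share these 8 arrays, so the 6 are not separate observations.

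**Figure D3:**
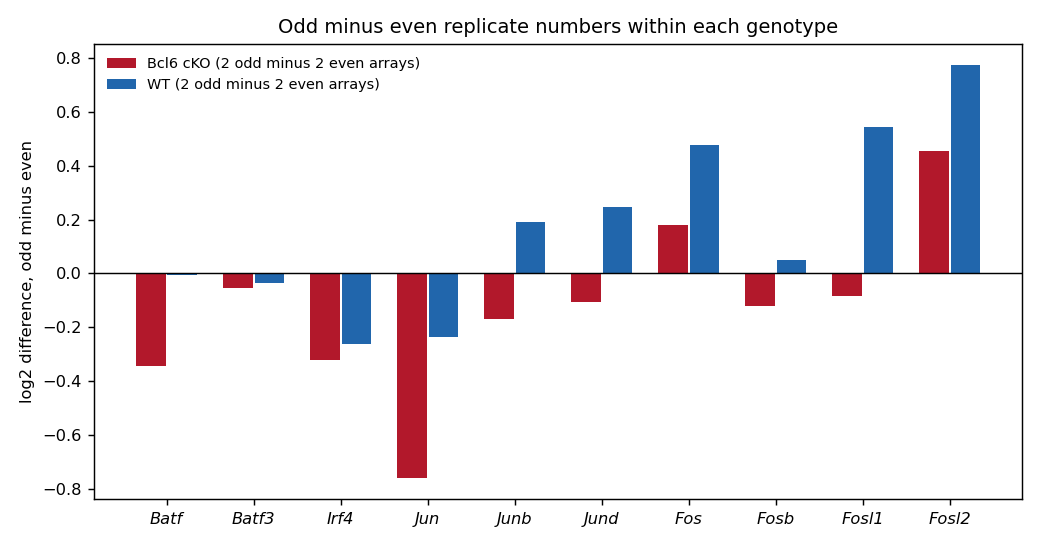
Bars give the log2 difference of odd minus even replicate numbers for each gene, in Bcl6 cKO (left bar, 2 against 2 arrays) and in WT (right bar, 2 against 2 arrays). Fosl2 and Fos are above 0 and Irf4 and Jun below 0 in both genotypes. Fosl1, Jund, Junb and Fosb have bars of opposite sign.

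Correlations between the 10 genes across the 8 arrays gave 45 pairs, of which none passed an adjusted p of 0.05 (exact permutation test, Pearson or Spearman), and the smallest adjusted p for Pearson was 0.141. Jund and Fosl1 had r = 0.85 (exact permutation p = 0.0063) and rho = 0.95 (exact permutation p = 0.0012, adjusted p = 0.0536). Their r was 0.88 after centring each genotype, 0.87 after centring odd and even numbers, and 0.74 without the 2 arrays farthest from the median of Jund. Irf4 and Jun had r = 0.79 (exact permutation p = 0.0053, adjusted p = 0.141) and rho = 0.76 (exact permutation p = 0.0368, adjusted p = 0.191). Centred within odd and even numbers, their r was 0.61, and without the 2 arrays farthest from the median of Irf4 it was 0.82. Batf and Irf4, which bind DNA together, had r = 0.78 (exact permutation p = 0.0219, adjusted p = 0.141) and rho = 0.55 (exact permutation p = 0.171, adjusted p = 0.513). Their r was 0.70 after centring each genotype and 0.66 after centring odd and even numbers. Without the 2 arrays farthest from the median of Batf, r was -0.098. Batf then spans only 9.12 to 9.27, so this value cannot tell whether the relation rested on those arrays. The arrays of Fosl2 fall into 2 levels by replicate number, as do those of Irf4 and Jun. Its r was 0.76 with Fosl1, 0.57 with Jund and -0.79 with Irf4 (adjusted p = 0.154, 0.328 and 0.141, exact permutation test). Centred within odd and even numbers, these were 0.88, 0.98 and -0.19. Its correlations with the remaining genes are not described.

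The genes most like the 3 most variable members were found by Pearson's r over the 8 arrays, as a description. For Fosl2 they were Slc29a3, a lysosomal nucleoside transporter (r = 0.994), Gfod1 (r = 0.983) and the zinc finger gene Zfp948 (r = 0.983). Odd-numbered and even-numbered arrays of all 3 did not overlap, and Slc29a3 averaged 10.67 on odd-numbered and 10.14 on even-numbered arrays. These r values include the split by replicate number that Fosl2 and all 3 genes share, and r within odd or even numbers was not computed. For Fos they were the small GTPase gene Rhof (r = 0.974), Castor2 (r = 0.968) and the mitochondrial import gene Dnajc19 (r = 0.968). For Jun they were the leukotriene receptor gene Cysltr1 (r = 0.994), the erythroid factor Gata1 (r = 0.987) and Tmem176b (r = 0.983). Bcl6 cKO replicate 2 was the highest array for all 3, and without it their r with Jun was 0.939, 0.960 and 0.851 over 7 arrays.

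Genes that act with the 10 factors were taken from 7 lists, of whose 146 entries 128 were measured. None of the 128 entries passed over all genes in either direction (limma), against 0.221% of all genes, and 23 had an unadjusted p under 0.05, against 10.9% of all genes. Of 33 other zipper factors 18 (54.5%) were above and 15 below WT, against 52.1% of all genes above WT. Their median log2 difference was 0.02, against 0.0025 over all genes. Nfe2l2, the master regulator of the antioxidant response, read 10.59 to 10.70 in Bcl6 cKO and 10.80 to 11.00 in WT, without overlap (log2 difference -0.295, adjusted p = 0.079, limma). Atf3, the neighbour of Batf3, read 9.06, 10.42, 9.15 and 9.76 in Bcl6 cKO, against 8.78, 8.47, 8.74 and 8.29 in WT. Its groups did not overlap either, and its log2 difference was 1.03 (interval 0.46 to 1.59, adjusted p = 0.16, limma). The difference of Atf3 was 0.40 within the arrays of high and 1.49 within those of low Y-linked signal. Within odd replicate numbers it was 0.345, within even ones 1.71, and without Bcl6 cKO replicate 2 it was 0.75.

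Of 23 kinases and adaptors that feed AP-1, 10 (43.5%) were above and 13 below WT, with a median of -0.013, against 52.1% of all genes above WT. Map3k1, an upstream kinase of the JNK pathway, averaged 9.98 ± 0.09 in Bcl6 cKO and 10.23 ± 0.05 in WT (SD, n = 4 each, adjusted p = 0.118, limma). Map4k4, another kinase of that pathway, averaged 10.25 ± 0.04 in Bcl6 cKO and 10.48 ± 0.07 in WT (adjusted p = 0.135, limma). The groups of both did not overlap, and neither passed. Map2k4, another kinase of the list picked after its values were seen, was higher in Bcl6 cKO, also without overlap. Its log2 difference was 0.205 (adjusted p = 0.191, limma). A list of 9 genes held serum response factor and its cofactors, which drive Fos, and Mef2 factors. Of these 6 were below WT and 33.3% above, against 52.1% of all genes above, Mrtfa (-0.17) and Elk4 (-0.12) having the smallest p-values. Of 5 NFAT factors, the partners of AP-1 on cytokine genes, Nfatc2 and Nfat5 were above WT. Nfatc1 and Nfatc3 were below, and Nfatc4 had the same mean in both groups. The log2 differences were -0.13 for Nfatc3 and 0.115 for Nfat5.

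Of 9 other interferon regulatory factors and their partners 6 were below WT and 33.3% above, against 52.1% of all genes above. Their median was -0.048, with Irf5 at -0.115 and Irf2 at -0.135. Of 11 genes for turnover of AP-1 proteins and their RNA 9 were below WT and 18.2% above, against 52.1% of all genes above. Their median was -0.04. Zc3h12a, an RNase of inflammatory transcripts, was at -0.20 and Zfp36, which destabilises them, at -0.21. None of these genes passed.

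Of 38 measured genes known as targets of AP-1, Batf or Irf4 in T cells, a list that includes Bcl6 itself, 28 (73.7%) were above WT, against 52.1% of all genes, and the median log2 difference was 0.15, against 0.0025. At an unadjusted p under 0.05 there were 11 of the 38, against 10.9% of all genes, and none passed after adjustment (smallest adjusted p = 0.257, limma). Cxcr5, the homing receptor of follicular helper cells, spanned 6.29 to 6.63 in Bcl6 cKO cells and 6.66 to 7.40 in WT cells, without overlap. Il3 read 7.05, 10.97, 8.15 and 10.25 in Bcl6 cKO, against 6.87, 7.47, 6.75 and 6.41 in WT, a log2 difference of 2.23 with an interval of 0.67 to 3.79 that did not pass (adjusted p = 0.265, limma). It was 0.02 within the arrays of high and 3.38 within those of low Y-linked signal. Bcl6 cKO replicates 2 and 4 were the highest for Il3, as they were for Batf and Irf4. Il2, the growth factor gene long used to study AP-1 and NFAT, was picked after its values were seen. It read 11.05, 12.23, 11.54 and 11.88 in Bcl6 cKO, against 10.88, 11.23, 11.03 and 11.29 in WT (log2 difference 0.57, adjusted p = 0.343, limma). With Y-linked signal in the fit the difference of Il2 was 0.30, and within the arrays of high Y-linked signal 0.0033. Tbx21, the Th1 factor, picked in the same way, had a log2 difference of 1.08 (adjusted p = 0.409, limma), and -0.03 within the arrays of high Y-linked signal.

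**Figure D4:**
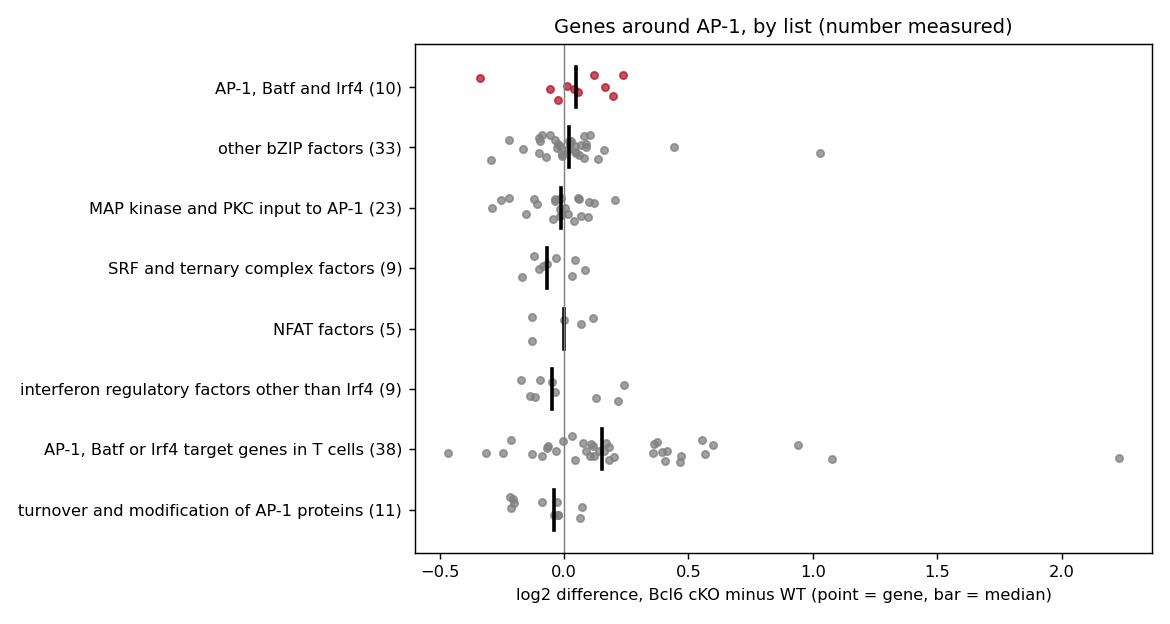
Each point is the log2 difference of 1 gene, Bcl6 cKO minus WT, and the bar is the median of its list. The 10 factors lie between -0.34 and 0.24, and the target list has the highest median, 0.15, with Il3 farthest to the right at 2.23.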

How the data were processed

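RNA of 8 samples was hybridised to whole-transcript arrays, 1 array each, from 100 ng of total RNA per the labels' protocols. The authors deposited log2 signals, rounded to 2 decimals. RMA and Partek made them, per the submitters' processing notes, with versions, settings and genome build not given in the sources used here. Of 35556 clusters, 21789 had 1 gene symbol in the platform annotation, 1621 several and 12146 none. The brightest cluster of each gene was kept, which left 19938 genes.

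Both genotypes were set against each other by limma 3.58.1 (R 4.3.3; lmFit and eBayes over all 8 arrays, no covariate, no filter on low values). P-values were adjusted over all genes by the Benjamini-Hochberg method. Exact permutation tests used SciPy 1.17.1. The fit was tested on simulated data. The members, gene lists and settings were chosen with earlier results of these data known. All 10 members are named, with the genes of each list past the threshold or, with none, the 2 of smallest p. Likeness names the 3 genes of highest r for each of the 3 members of largest SD. Other settings were moderation, array weights, scaling, filters, averaged clusters, sex, odd or even number, leaving out each array and the replicate block. No 2 arrays were copies, since at most 3.94% of genes had equal values on both.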

Additional observations from a re-analysis of the deposited data

Results flagged for a closer look

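In Cysltr1, 1 of the genes most like Jun, Bcl6 cKO replicate 2 (6.31) stood far from the other Bcl6 cKO arrays, which read 5.78 to 5.86. This was the 1 such array among 66 groups of 4 arrays examined, where chance gives about 1 in 20. The other Cysltr1 values lay close to the upper background level of 5.83. Jun itself was highest on the same array (9.70).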

How the results depend on the processing

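No member passed, higher or lower, at an adjusted p of 0.05 under any alternative run. A threshold of 0.1 was tried with the main settings alone and passed no member; with odd or even number as a term Fos had 0.0965 (limma). The replicate block gave no call either (0 higher, 0 lower; Fos adjusted p = 0.174, Irf4 0.213, limma). Same-numbered samples had correlated deviations of 0.0731, 0.206, 0.203 and 0.205 over genes. Bcl6 cKO replicates 2, 3 and 4 correlated best with their own number and replicate 1 with WT replicate 3 (0.186); with 1 pair this low the samples were not treated as paired, and what a number stands for is not given. The median log2 difference of the members was -0.085 within odd and 0.18 within even replicate numbers, and -0.0154 to 0.1075 without 1 array. Batf3, Irf4 and Fos kept their sign in all 24 alternatives, with ranges of 0.09 to 0.134, 0.0533 to 0.262 and -0.485 to -0.19.

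The other members, whose intervals include 0 as does that of Irf4, changed sign in some settings. Within arrays of high Y-linked signal Batf was -0.0267, Jun -0.0533, Junb -0.0367, Fosl1 -0.12 and Fosl2 0.107 (Zfp36 0.0233, Tbx21 -0.03), and within the others Jund was 0.107, Fosb -0.0733 and Fosl2 0.293. Within odd numbers Batf was -0.005, Jun -0.025, Junb -0.125, Fosb -0.045 and Fosl1 -0.305, and within even numbers Jund was 0.12 and Fosl2 0.135. Fosl1 was -0.0941 with array weights, and Fosl2 was 0.20 with Y-linked signal and 0.005 with odd or even number added to it. Without 1 array, Batf ranged from 0.0908 to 0.224, Jun from -0.0475 to 0.3725, Junb from -0.01 to 0.0983, Jund from -0.109 to 0.0142, Fosb from -0.0267 to 0.0933, Fosl1 from -0.1025 to 0.104 and Fosl2 from -0.161 to 0.133. Within even numbers alone Atf3 (1.71) and Il3 (3.67) passed (adjusted p = 0.0054 each, limma). The cause of these shifts was not tested. Every member has 1 cluster, so averaging clusters changed no value. None of the 45 correlations passed with Pearson (0) or Spearman (0).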
